A study of Mus musculus with 12 samples.

Results

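The genes described are Fgf4, the fibroblast growth factor (FGF) ligand made by mouse embryonic stem cells, the 4 FGF receptor genes Fgfr1, Fgfr2, Fgfr3 and Fgfr4, and the genes of the adaptors Frs2 and Grb2. The 7 symbols were matched in the authors' deposited table of comparisons to their Ensembl IDs, and the values were read from the deposited table of estimated counts, which lists 52661 genes. All 7 were present and all 7 passed the filter on low counts. RNA had been sequenced as 12 libraries, 3 in each of 4 groups, from CGR8, an embryonic stem cell line of the mouse kept in serum with leukemia inhibitory factor. Every line had been stably transfected with the ppy-cagg-ires-puro vector. The vector carried wild-type netrin-1 (netrin-1 WT), a netrin-1 point mutant named for the receptor Unc5b (unc5B MUT), a point mutant named for neogenin (neo1 MUT), or no insert (control). Netrin-1 is a secreted laminin-related protein. The sources used here do not give the residues that were changed or whether a line was 1 clone or a pool.

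FGF ligands bind receptor tyrosine kinases on the cell surface together with heparan sulfate. The activated receptor phosphorylates the docking protein Frs2, which recruits Grb2 and the exchange factor Sos, and through them Ras and the ERK kinases are switched on. In the early mouse embryo the pluripotent epiblast secretes Fgf4, and ERK signalling downstream of Fgfr1 and Fgfr2 directs neighbouring inner cell mass cells to the primitive endoderm. In cultured embryonic stem cells the same signal prepares cells to leave self-renewal.

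The sequences below are shown because Fgf4 is the ligand of the group and because Fgfr2 and Fgfr3 are the members called in the paired fit described further on. The unpaired fit, also described there, called no member. The promoter windows run from 250 bases before to 50 bases after a start that RefSeq gives for the gene on GRCm38.p6. For Fgf4 and Fgfr2 that start lies inside the GENCODE gene span given further on, which reaches farther upstream through longer annotated transcripts, so other annotated starts of these genes are not shown. Capitals mark 3 searched motifs, which are the GC box with the letters GGGCGG, the box named for its letters CCAAT, and the letters GATAA of GATA factors. Each was searched on both strands, and a match on the other strand is printed as its reverse complement. No matched letters overlapped between motifs in these windows.
Fgf4 promoter, chr7:144861136-144861435, plus strand: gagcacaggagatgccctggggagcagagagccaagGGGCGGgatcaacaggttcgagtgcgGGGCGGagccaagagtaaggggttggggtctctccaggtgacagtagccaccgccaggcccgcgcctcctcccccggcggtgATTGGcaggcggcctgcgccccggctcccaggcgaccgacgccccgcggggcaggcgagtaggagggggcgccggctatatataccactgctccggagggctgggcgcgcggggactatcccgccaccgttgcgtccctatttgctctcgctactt
Fgfr2 promoter, chr7:130266759-130267058, minus strand: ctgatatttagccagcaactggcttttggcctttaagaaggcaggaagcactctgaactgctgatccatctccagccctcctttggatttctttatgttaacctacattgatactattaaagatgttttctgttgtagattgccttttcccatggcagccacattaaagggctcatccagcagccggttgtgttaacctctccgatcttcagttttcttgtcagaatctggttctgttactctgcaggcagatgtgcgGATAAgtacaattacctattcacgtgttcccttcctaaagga
Fgfr3 promoter, chr5:33721474-33721773, plus strand: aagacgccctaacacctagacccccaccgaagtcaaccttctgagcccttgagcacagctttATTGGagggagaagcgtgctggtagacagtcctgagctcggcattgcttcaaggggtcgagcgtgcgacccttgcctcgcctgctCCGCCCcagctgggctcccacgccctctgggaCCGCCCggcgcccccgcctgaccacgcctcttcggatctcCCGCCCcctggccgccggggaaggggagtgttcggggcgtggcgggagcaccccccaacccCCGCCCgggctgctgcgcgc
The Fgf4 window was 69.7% G and C with 28 CpG pairs and held 2 GC boxes and 1 CCAAT box. The first Fgfr3 window had the same 69.7% G and C with 26 CpG pairs, 4 GC boxes and 1 CCAAT box. The Fgfr2 window differed from both, with 43.7% G and C, 4 CpG pairs, no match to a GC or CCAAT box and 1 GATAA. Over 32851 mouse promoter windows of the same length the median was 52.7% G and C and 7 CpG pairs, 35.7% held GGGCGG, 37.4% held CCAAT and 25.4% held GATAA. A match is a run of letters and not a shown binding site. RefSeq windows were matched for 6 of the 7 members, all but Fgfr1.

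Fgf4 is known for an enhancer in the untranslated end of its own last exon, where Sox2 and the octamer factor Oct4 (Pou5f1) bind side by side. In the line that follows capitals mark the Sox letters and the octamer letters.
Fgf4 Sox and octamer site, chr7:144864388-144864417, plus strand: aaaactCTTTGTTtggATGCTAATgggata
The 30 bases lie in exon 3 of 3, 1450 bases after the last coding base, in GENCODE M21 on GRCm38. The letters CTTTGTT, any 3 bases and then ATGC occurred in the transcripts of 41 of 55450 annotated genes (0.0739%).

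Summed estimated counts were 22256195 to 59735737 per library. Ntn1, the gene the transgene encodes, averaged 196 ± 108 CPM in netrin-1 WT cells, 187 ± 144 CPM in unc5B MUT, 159 ± 89.2 CPM in neo1 MUT and 8.43 ± 7.34 CPM in control (SD, n = 3 each). CPM are counts scaled to the depth of the library, with trimmed-mean library sizes. In Fgfr1, Frs2 and Grb2 the libraries that share replicate number 3 stood apart from the other 8. The share of all genes with such a split is not given here, so the split cannot be called particular to these genes. The first principal component over all genes tested held 70.2% of the variance, and how the libraries lay along it is not given here. No label tells what is shared by libraries of 1 number, or whether libraries came from separate cultures, so p-values measure the spread between these libraries. Summed pluripotency markers (10 of 10 measured) were 4449 to 4782 CPM in netrin-1 WT, 4192 to 4769 CPM in unc5B MUT, 3678 to 4632 CPM in neo1 MUT and 4231 to 4826 CPM in control.

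Each comparison was a contrast in edgeR (quasi-likelihood F-test) across 21053 genes, fitted once with the group as the only term (the unpaired fit) and once with the replicate number as a block (the paired fit). Without pairing, 0 of 7 members passed an adjusted p of 0.05 in any of the 6 comparisons, against 0.0997% of all genes for netrin-1 WT over control, 0% for unc5B MUT over control, 0.128% for neo1 MUT over control, 0% for unc5B MUT over netrin-1 WT, 0.076% for neo1 MUT over netrin-1 WT and 0.133% for neo1 MUT over unc5B MUT. At an unadjusted p under 0.05 the unpaired fit gave 1, 0, 2, 1, 1 and 1 members in that order. DESeq2 without pairing called 0, 0, 1, 0, 1 and 0 members, each time Fgfr3, and limma-voom called 0 in all 6. The shares of all genes called by these methods are not given here. Counts from methods and settings other than the unpaired and paired edgeR fits, here and below, therefore stand without a share to compare. The same holds for every count at an unadjusted p under 0.05, here and below, from the edgeR fits too. The share of all genes under that cut is not given here, so such counts cannot be read as high or low.

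In the paired fit Fgfr2 was lower in netrin-1 WT than in control, which made 1 of 7 members called against 3.5% of all genes. Fgfr2 and Fgfr3 were lower in neo1 MUT than in control, 2 of 7 against 5.26%. No member was called for unc5B MUT over control, 0 of 7 against 0.0285%, where 0 members also had an unadjusted p under 0.05 in the paired fit and 1, Fgfr3, had one in DESeq2 without pairing, which did not call it. Fgfr2 was higher in unc5B MUT than in netrin-1 WT, 1 of 7 against 1.97%. Fgfr3 was lower in neo1 MUT than in netrin-1 WT, 1 of 7 against 1.99%. For neo1 MUT over unc5B MUT 0 of 7 were called against 4.87%, with 4 members (Fgf4, Fgfr2, Fgfr3 and Frs2) at an unadjusted p under 0.05 and 2 (Fgf4 and Fgfr2) called by DESeq2 with the block. Comparisons that share a group share its 3 libraries and are not independent. Log2 fold changes below are from the paired fit with their standard error, and "rose" and "fell" are used where that fit passed. The median log2 fold change over all genes was at most 0.02.

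**Figure D1:**
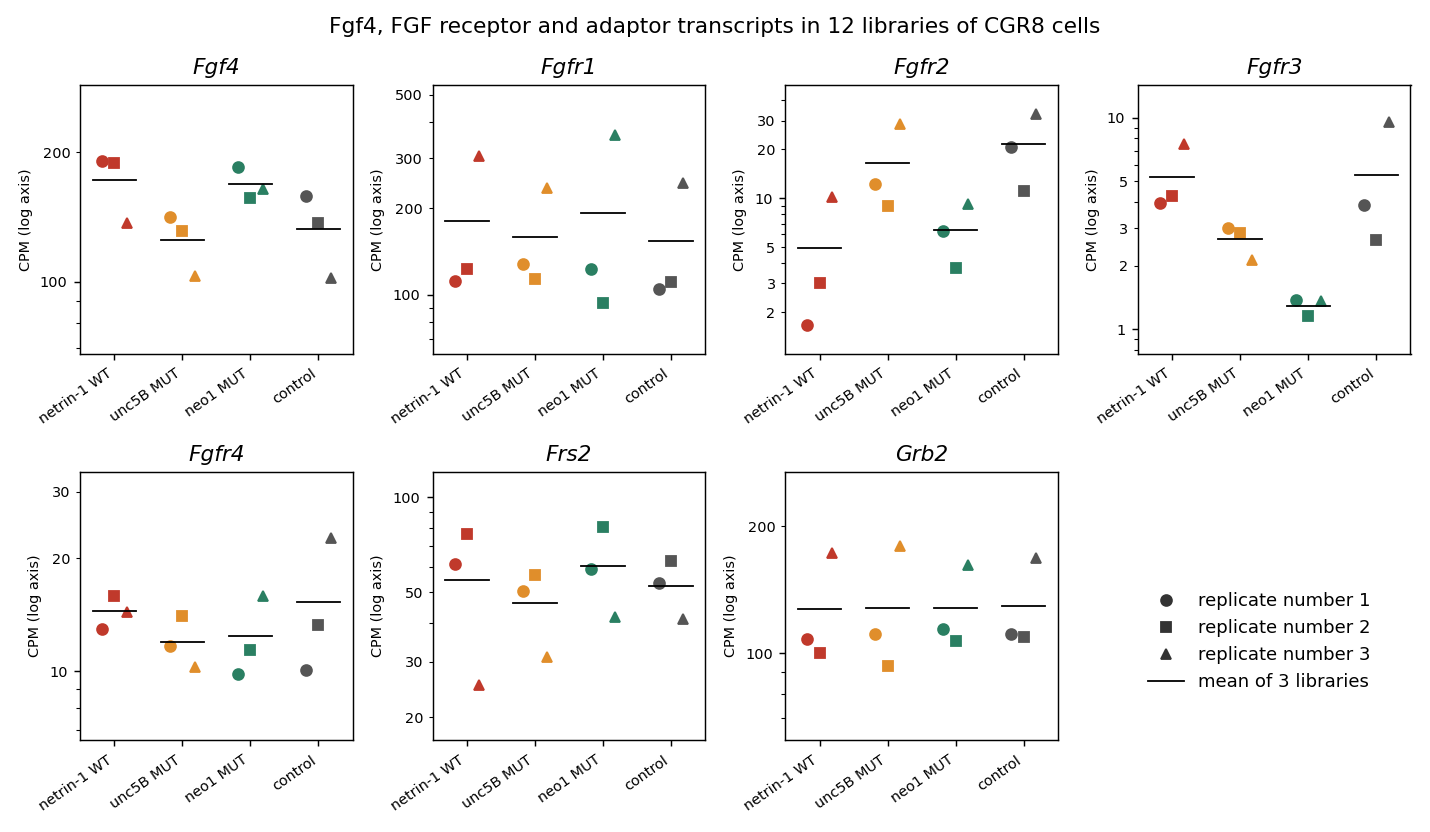
CPM on a log axis of the 7 genes in each of the 12 libraries, with 1 panel per gene. Circles, squares and triangles are replicate numbers 1, 2 and 3 and lines are means of 3 libraries. Fgfr2 lay at 1.67 to 10.2 CPM in netrin-1 WT and at 11.1 to 33.2 CPM in control, Fgfr3 lay below all other groups in neo1 MUT, and the triangles of Fgfr1 and Grb2 lay above and those of Frs2 below the other symbols.

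**Figure D2:**
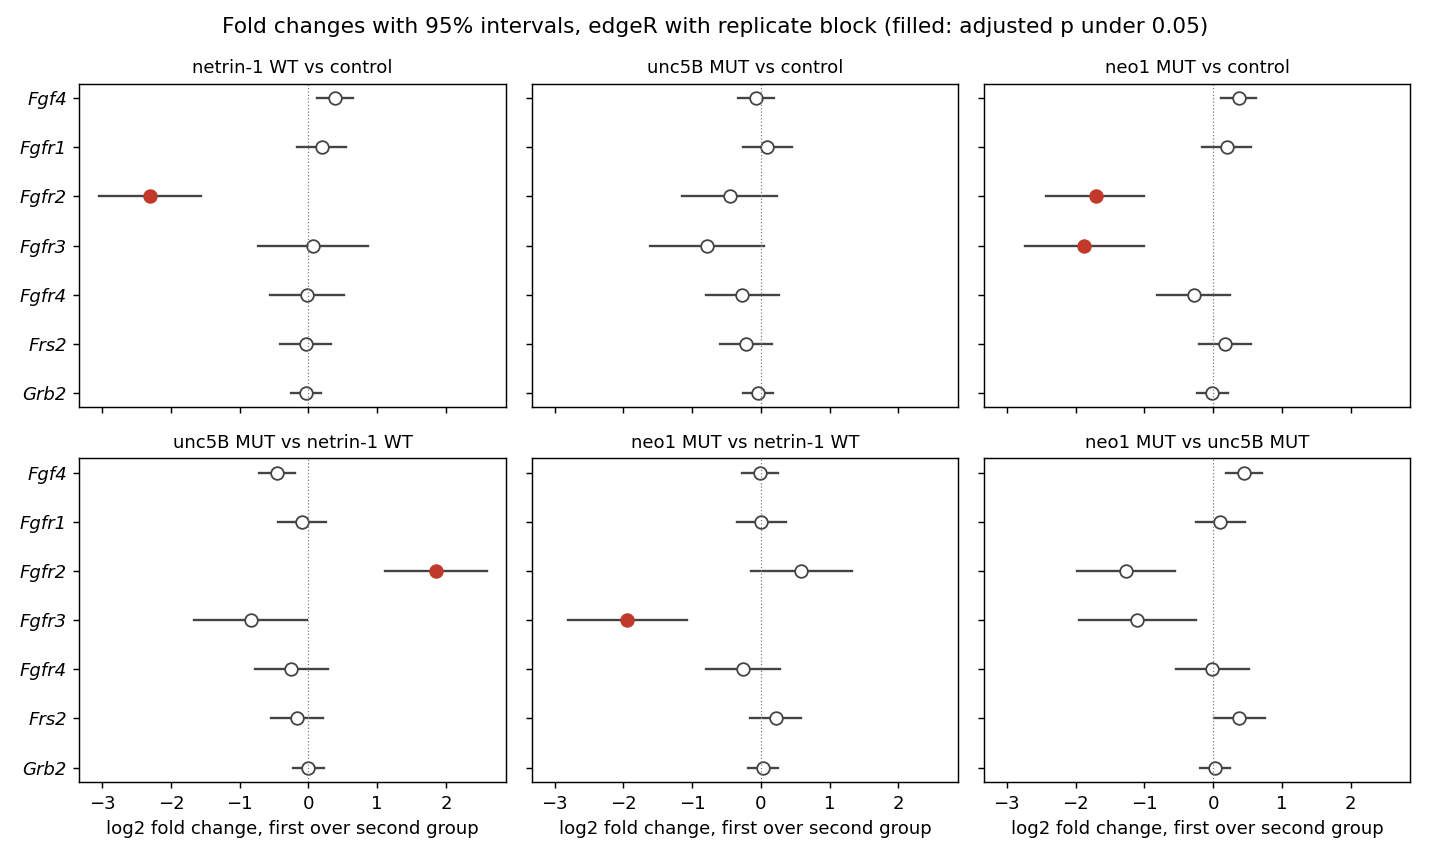
Log2 fold changes of the 7 genes with 95% intervals in the 6 comparisons, from edgeR with the replicate number as a block. Filled points are those with an adjusted p under 0.05, which were Fgfr2 in 3 comparisons and Fgfr3 in 2.

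Fgf4 had the highest median level per exon length of the 7 members, within the range of Grb2, and was called in none of the 6 comparisons. The gene lies at chr7:144847367-144865243 on the plus strand (GENCODE M21, GRCm38, as for all positions that follow). It had 191, 189 and 137 CPM in netrin-1 WT libraries 1, 2 and 3. In unc5B MUT it had 141, 131 and 103 CPM. In neo1 MUT it had 185, 156 and 164 CPM, against 158, 137 and 102 CPM in control. Within each replicate number Fgf4 was higher in netrin-1 WT and in neo1 MUT than in control and than in unc5B MUT, while over the groups as wholes only the neo1 MUT and unc5B MUT libraries did not overlap. The log2 fold change was 0.39 ± 0.12 for netrin-1 WT over control (95% interval 0.13 to 0.65, adjusted p = 0.106) and 0.37 ± 0.12 for neo1 MUT over control (adjusted p = 0.101). For unc5B MUT it was -0.46 ± 0.12 over netrin-1 WT (adjusted p = 0.0756), and for neo1 MUT over unc5B MUT it was 0.45 ± 0.12 (adjusted p = 0.0564). DESeq2 with the block, an alternative chosen after seeing the data, called Fgf4 in these 4 comparisons. Neither unc5B MUT over control (-0.07, interval -0.33 to 0.19) nor neo1 MUT over netrin-1 WT (-0.01, interval -0.27 to 0.25) was called. Leaving netrin-1 WT library 3 out of the paired fit brought unc5B MUT over netrin-1 WT to an adjusted p of 0.0425, the only such call among the leave-one-out fits of Fgf4.

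The genes of the factors known to bind the Sox and octamer site shown above had the following levels. Sox2 averaged 557 ± 218 CPM in netrin-1 WT cells, 356 ± 72.8 CPM in unc5B MUT, 383 ± 85.3 CPM in neo1 MUT and 322 ± 76.2 CPM in control. Pou5f1 averaged 1123 ± 151 CPM in netrin-1 WT cells, 1296 ± 188 CPM in unc5B MUT, 1239 ± 259 CPM in neo1 MUT and 1261 ± 163 CPM in control. Sox2 was highest on average in netrin-1 WT, as was Fgf4. In the paired fit Sox2 rose by 0.75 ± 0.14 in netrin-1 WT relative to control (adjusted p = 0.0144, and 0.81 without pairing). For neo1 MUT over control its log2 fold change was 0.26 ± 0.13 (adjusted p = 0.317). The neo1 MUT cells had nearly the Fgf4 level of netrin-1 WT. Mean Sox2 levels of both neo1 MUT and unc5B MUT lay between those of netrin-1 WT and control. A link between these levels was not tested.

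Fgfr2, the receptor that marks the primitive endoderm lineage in the blastocyst, was lower in netrin-1 WT than in control, and in neo1 MUT as well. The gene lies at chr7:130162451-133123350 on the minus strand. Netrin-1 WT libraries 1, 2 and 3 had 1.67, 3 and 10.2 CPM (68, 113 and 211 counts). The unc5B MUT libraries had 12.2, 8.95 and 28.7 CPM. The neo1 MUT libraries had 6.26, 3.71 and 9.29 CPM, against 20.7, 11.1 and 33.2 CPM in control (937, 466 and 595 counts). Library 3 was the highest of its group in all 4 groups. All control libraries lay above all netrin-1 WT and all neo1 MUT libraries, and the unc5B MUT libraries overlapped with those of netrin-1 WT, neo1 MUT and control.

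Fgfr2 fell in netrin-1 WT relative to control, with a log2 fold change of -2.31 ± 0.34 (95% interval -3.05 to -1.56, adjusted p = 0.00498). Without pairing the log2 fold change was -2.13 ± 0.73 with an adjusted p of 0.576. Within replicate numbers 1, 2 and 3 the log2 ratio of netrin-1 WT to control was -3.63, -1.89 and -1.70. The paired call held in 6 of 6 fits that left out 1 library of either group, with adjusted p between 0.00332 and 0.0262.

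In neo1 MUT Fgfr2 fell by 1.71 ± 0.33 relative to control (adjusted p = 0.0152, and 0.603 without pairing). The within-number log2 ratios were close to each other at -1.73, -1.59 and -1.84. The paired call was kept in 3 of 6 leave-one-out fits. It was lost without neo1 MUT library 2 (adjusted p = 0.0643), neo1 MUT library 3 (0.0741) or control library 1 (0.095).

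In unc5B MUT Fgfr2 had a log2 fold change of -0.45 ± 0.31 over control, which was not called (interval -1.14 to 0.24, adjusted p = 1). It rose by 1.86 ± 0.33 in unc5B MUT relative to netrin-1 WT (interval 1.12 to 2.59, adjusted p = 0.023, and 0.941 without pairing), with within-number log2 ratios of 2.87, 1.58 and 1.49. That call was kept in 2 of 6 leave-one-out fits and was lost without netrin-1 WT library 2 (adjusted p = 0.0967) or unc5B MUT library 1, 2 or 3 (0.112, 0.119 and 0.0915). The difference between the mutants, neo1 MUT over unc5B MUT, was -1.26 ± 0.32 with an adjusted p of 0.0505. The difference between neo1 MUT and netrin-1 WT was 0.59 ± 0.33 (interval -0.14 to 1.33, adjusted p = 0.463). In the authors' deposited table, made with a model that the sources used here do not give, Fgfr2 had log2 fold changes of -2.38 for netrin-1 WT over control (adjusted p = 0.00235), -1.71 for neo1 MUT over control (0.01), 1.96 for unc5B MUT over netrin-1 WT (0.0139) and -1.29 for neo1 MUT over unc5B MUT (0.037). Fgfr2 shares 314 exon bases on the same strand with Ctbp2, a transcriptional corepressor gene at 127 to 325 CPM that had paired log2 fold changes of -0.07 to 0.16 and was called in none of the 6 comparisons. The sources used here do not give how reads in those bases were divided.

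The mean summed level of primitive endoderm markers had the same order of groups as Fgfr2. Its lower end was close, with 700 ± 261 CPM in netrin-1 WT and 713 ± 137 CPM in neo1 MUT. Not every marker had that order. Gata4, Pdgfra, Lrp2, Lama1 and Hnf4a averaged lower in neo1 MUT than in netrin-1 WT, and the other markers averaged higher. Hnf4a also averaged higher in unc5B MUT than in control. The summed level of 16 markers (16 of 16 measured, none at 0 in any group) was 565, 534 and 1000 CPM in netrin-1 WT and 1541, 1151 and 2775 CPM in unc5B MUT. It was 795, 555 and 791 CPM in neo1 MUT, against 1939, 1767 and 3707 CPM in control. As for Fgfr2, library 3 was the highest in netrin-1 WT, unc5B MUT and control. The markers were chosen with earlier results of these data known, so the counts that follow describe them and are no independent test. In the paired fit 15 of the 16 markers were lower in netrin-1 WT than in control, against 3.5% of all genes called. Without pairing 6 of 16 were lower, against 0.0997%. The median paired log2 fold change was -2.43. In neo1 MUT 16 of 16 were lower than in control (median -2.29), against 5.26% of all genes, and 4 of 16 without pairing, against 0.128%. In unc5B MUT 0 of 16 were called over control by paired edgeR (median -0.54), against 0.0285% of all genes. There 8 had an unadjusted p under 0.05 and DESeq2 with the block called 2. In the paired fit 12 were higher in unc5B MUT than in netrin-1 WT (median 1.86), against 1.97% of all genes. Without pairing 0 of 16 were called for unc5B MUT over netrin-1 WT, against 0% of all genes, with 13 at an unadjusted p under 0.05, while DESeq2 with the block called 16. Pdgfra, a receptor gene of this lineage, averaged 9.51 ± 2.16 CPM in netrin-1 WT cells, 44.0 ± 15.2 CPM in unc5B MUT, 9.28 ± 4.13 CPM in neo1 MUT and 54.9 ± 9.4 CPM in control. In bulk RNA, fewer cells of a type and less RNA per cell cannot be told apart, and the part of these markers' cells in the Fgfr2 values was not tested. Summed fibroblast markers were 11.9 to 21.5 CPM in netrin-1 WT, 15 to 18.9 CPM in unc5B MUT, 9.55 to 11 CPM in neo1 MUT and 16.8 to 21.7 CPM in control. Among them Postn was at 0 in unc5B MUT and neo1 MUT, and Dcn was at 0 in neo1 MUT and control.

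**Figure D3:**
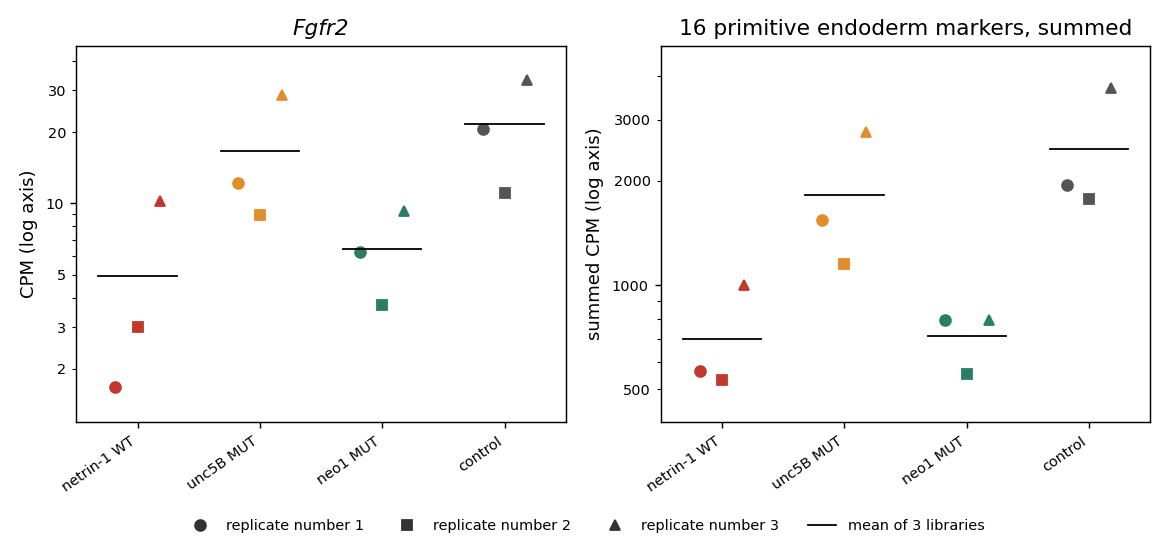
Fgfr2 (left) and the summed level of 16 primitive endoderm markers (right), in CPM on log axes, in each library of the 4 groups, with means of 3 libraries as lines. In both panels the netrin-1 WT and neo1 MUT libraries lie below all control libraries, at 534 to 1000 and 555 to 795 CPM against 1767 to 3707 CPM for the markers. Col4a1 holds the largest part of the marker sum on average in each group.

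Fgfr3 was lowest in neo1 MUT, in which all 3 libraries lay below every library of the other groups. The gene, whose product is best known as a brake on cartilage growth, lies at chr5:33721674-33737068 on the plus strand. Netrin-1 WT libraries had 3.94, 4.27 and 7.56 CPM (160, 161 and 156 counts). The unc5B MUT libraries had 3.02, 2.85 and 2.12 CPM (188, 131 and 39 counts). The neo1 MUT libraries had 1.37, 1.15 and 1.36 CPM (64, 44 and 26 counts), against 3.87, 2.63 and 9.55 CPM in control (175, 110 and 171 counts). The control libraries were the most spread, and control overlapped with netrin-1 WT and unc5B MUT, while those of unc5B MUT lay below those of netrin-1 WT.

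Fgfr3 fell in neo1 MUT by 1.88 ± 0.39 relative to control (interval -2.74 to -1.01, adjusted p = 0.0223) and by 1.94 ± 0.39 relative to netrin-1 WT (interval -2.80 to -1.08, adjusted p = 0.0316). In the unpaired fit neither passed (adjusted p = 0.185 and 0.284). Within numbers 1, 2 and 3 the log2 ratio to control was -1.50, -1.19 and -2.81, and that to netrin-1 WT was -1.53, -1.89 and -2.47. The call over control was kept in 2 of 6 leave-one-out fits and was lost without neo1 MUT library 1, 2 or 3 (adjusted p = 0.0716, 0.0711 and 0.107) or control library 1 (0.0699). The call over netrin-1 WT was lost in 6 of 6, with adjusted p between 0.0626 and 0.137 and log2 fold changes between -2.09 and -1.75. The authors' deposited table gives -1.75 (adjusted p = 0.0202) and -1.91 (0.021) for these comparisons.

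The other Fgfr3 comparisons were not called in the paired or the unpaired edgeR fit over all libraries. The log2 fold change was -1.10 ± 0.39 for neo1 MUT over unc5B MUT (adjusted p = 0.133), although the 3 libraries of each did not overlap, and it passed when the paired fit used replicate numbers 1 and 2 alone (-1.22, adjusted p = 0.0267), an alternative chosen after seeing the data. It was -0.78 ± 0.38 for unc5B MUT over control (interval -1.61 to 0.05) and -0.84 ± 0.37 for unc5B MUT over netrin-1 WT (adjusted p = 0.27). For netrin-1 WT over control it was 0.06 ± 0.37 (interval -0.74 to 0.87), and its sign changed between settings. The unannotated transcript G630022F23Rik overlaps 998 exon bases of Fgfr3 on the opposite strand and had at most 0.813 CPM. The sources used here do not give whether strand was used in counting.

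Fgfr1 and Fgfr4 were called in no comparison. Fgfr1, the main receptor of the epiblast and of embryonic stem cells, lies at chr8:25513654-25575718 on the plus strand. It had 112, 123 and 306 CPM in netrin-1 WT and 128, 113 and 235 CPM in unc5B MUT. In neo1 MUT it had 123, 93.4 and 360 CPM, against 105, 111 and 245 CPM in control. Library 3 stood above the other libraries in every group, at 235 to 360 CPM over the 4 groups against 93.4 to 128 CPM in the other 8 libraries, and the 4 groups overlapped. The paired 95% intervals for the 3 comparisons with control ran from -0.16 to 0.55 in netrin-1 WT, -0.26 to 0.45 in unc5B MUT and -0.16 to 0.55 in neo1 MUT. The antisense gene Gm16159 shares 164 exon bases with Fgfr1 and had at most 0.678 CPM.

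Fgfr4, a receptor best known in the liver as the partner of bile acid regulating FGFs, lies at chr13:55152640-55168759 on the plus strand. It had 13, 15.9 and 14.4 CPM in netrin-1 WT, 11.7, 14.0 and 10.3 CPM in unc5B MUT and 9.85, 11.4 and 15.9 CPM in neo1 MUT, against 10.1, 13.3 and 22.6 CPM in control. Control library 3 was the highest, and all groups overlapped. The paired intervals for the comparisons with control ran from -0.56 to 0.51 in netrin-1 WT, -0.80 to 0.26 in unc5B MUT and -0.81 to 0.25 in neo1 MUT.

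Across genes, levels were compared as CPM per kilobase of annotated exon (the union of all exons). The medians over 12 libraries were 46.4 for Fgf4, 38.1 for Grb2, 12.5 for Fgfr1, 6.29 for Frs2, 3.71 for Fgfr4, 0.944 for Fgfr2 and 0.41 for Fgfr3. The ranges of neighbours in that order overlapped, except those of Fgfr1 and Frs2. Within libraries Fgf4 was above Grb2 in 8 of 12, Frs2 above Fgfr4 in 10 of 12 and Fgfr2 above Fgfr3 in 9 of 12, while Grb2 was above Fgfr1, Fgfr1 above Frs2 and Fgfr4 above Fgfr2 in 12 of 12. Per kilobase of the longest transcript the order of medians was the same, but the medians of Fgfr1 and Fgfr2 moved to 24.4 and 2.2. Grb2 was then above Fgfr1 in 11 of 12 libraries, Fgfr4 above Fgfr2 in 9 of 12 and Fgfr2 above Fgfr3 in 10 of 12.

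Per exon length Fgfr1 made up most of the receptor transcripts in every library, from 66.3% to 86.7%. Fgfr4 was the next on this scale at 9.77% to 25.2%. That second rank depends on the length used: with no division by length Fgfr2 averaged above Fgfr4 in unc5B MUT (8.24% and 7.13%) and in control (11.2% and 8.05%), and with the longest transcript it did so in control (12% and 11.5%). The Fgfr2 share averaged 1.77% ± 0.831 in netrin-1 WT, 7.05% ± 2.08 in unc5B MUT, 2.88% ± 0.834 in neo1 MUT and 9.38% ± 3 in control (SD, n = 3 each). The lowest unc5B MUT share of Fgfr2 was 5.21% and the lowest control share was 6.58%, above the highest of netrin-1 WT (2.67%) and of neo1 MUT (3.78%). The Fgfr3 share averaged 3.23% ± 0.336 in netrin-1 WT, 1.92% ± 0.802 in unc5B MUT, 0.955% ± 0.435 in neo1 MUT and 3.12% ± 0.781 in control. Thus Fgfr2 ranked above Fgfr3 by mean share in unc5B MUT, neo1 MUT and control, and below it in netrin-1 WT. The shares are given as a description, with no test. Their size depends on the length used: with no division by length Fgfr1 averaged 84.1% over the 12 libraries, in place of 73.9%, and Fgfr4 7.68% in place of 18.5%.

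**Figure D4:**
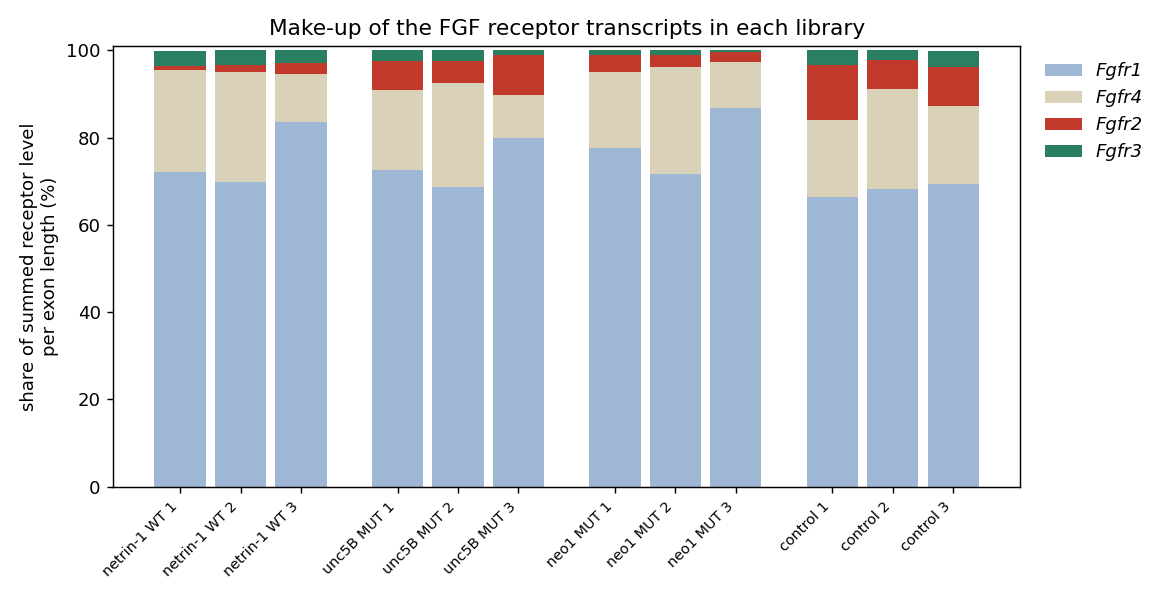
Share (%) of the summed per-length level of the 4 FGF receptor genes held by each gene, as 1 stacked bar per library. Fgfr1 holds 66.3% to 86.7% of each bar, and the Fgfr2 segment is at most 2.67% in netrin-1 WT and 3.78% in neo1 MUT against at least 5.21% in unc5B MUT and 6.58% in control.

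The adaptor genes were called in no comparison. Frs2, which encodes the docking protein that FGF receptors phosphorylate, lies at chr10:117069427-117148534 on the minus strand. It had 61.3, 76.6 and 25.4 CPM in netrin-1 WT, 50.5, 56.8 and 31.2 CPM in unc5B MUT and 59.3, 80.3 and 41.8 CPM in neo1 MUT, against 53.3, 62.9 and 41.0 CPM in control. Library 3 was the lowest in each group, at 25.4 to 41.8 CPM against 50.5 to 80.3 CPM in the other 8 libraries. The largest paired log2 fold change was 0.38 ± 0.17 for neo1 MUT over unc5B MUT (interval 0.01 to 0.76, adjusted p = 0.227).

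Grb2, which encodes the adaptor that links phosphorylated Frs2 to Sos, lies at chr11:115644045-115708597 on the minus strand. It averaged 127 ± 39.8 CPM in netrin-1 WT cells, 128 ± 45.7 CPM in unc5B MUT, 128 ± 29.7 CPM in neo1 MUT and 129 ± 33.5 CPM in control. Library 3 of each group had 162 to 180 CPM against 93 to 114 CPM in the other 8, and the 4 groups overlapped. The paired 95% intervals of all 6 comparisons lay between -0.26 and 0.25, the narrowest of the 7 members.

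Among the 21 other genes of the FGF family listed, 13 passed the filter on low counts. The other 8 (Fgf5, Fgf6, Fgf7, Fgf12, Fgf14, Fgf16, Fgf20 and Fgf21) did not, with means of at most 0.0879 CPM over the 12 libraries. Fgf10, a mesenchymal ligand of the b form of Fgfr2 in organ budding, averaged 0.926 ± 0.672 CPM in netrin-1 WT cells, 4.18 ± 1.5 CPM in unc5B MUT, 1.04 ± 0.396 CPM in neo1 MUT and 7.16 ± 5.17 CPM in control. Relative to control it fell by 2.97 ± 0.43 in netrin-1 WT (adjusted p = 0.00493) and also fell in neo1 MUT (adjusted p = 0.0102), and it rose by 2.35 ± 0.43 in unc5B MUT relative to netrin-1 WT (adjusted p = 0.0253). Relative to unc5B MUT it fell by 1.88 ± 0.42 in neo1 MUT (adjusted p = 0.0304). Fgf10 thus had the order of groups seen for Fgfr2. Fgf3 fell by 1.53 ± 0.33 in unc5B MUT relative to netrin-1 WT (adjusted p = 0.0458). Paired edgeR called no other gene of this list in any comparison, while DESeq2 with the block called up to 3 of the 13 in a comparison. The most abundant of them by CPM was Fgf1, with 7.77 ± 3.32 CPM in netrin-1 WT cells, 4.95 ± 3.75 CPM in unc5B MUT, 6.88 ± 1.02 CPM in neo1 MUT and 3.71 ± 1.44 CPM in control. Over the 13 tested genes 0 rose and 1 fell in netrin-1 WT over control, against 3.5% of all genes called, with a median log2 fold change of 0.54 against 0.01 over all genes. In neo1 MUT over control 0 rose and 1 fell (median 0.34), against 5.26% of all genes.

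Among 28 genes of coreceptors, heparan sulfate synthesis and ligand carriers, all tested, Klb and Flrt3 had the order of group means of Fgfr2. Klb encodes beta-Klotho, the coreceptor of the endocrine FGFs, and averaged 2.08 ± 0.981 CPM in netrin-1 WT cells, 13.2 ± 5.39 CPM in unc5B MUT, 2.69 ± 2.56 CPM in neo1 MUT and 20.3 ± 7.75 CPM in control. Flrt3 encodes a membrane protein that binds FGF receptors and averaged 1.88 ± 0.781 CPM in netrin-1 WT cells, 11.7 ± 6.51 CPM in unc5B MUT, 3.69 ± 2.71 CPM in neo1 MUT and 16.9 ± 10.3 CPM in control. In netrin-1 WT both fell relative to control, with log2 fold changes of -3.35 ± 0.37 for Klb and -3.06 ± 0.28 for Flrt3 (adjusted p = 0.00106 and 0.000471). In neo1 MUT both fell too, with -3.14 ± 0.36 for Klb and -2.24 ± 0.26 for Flrt3 (adjusted p = 0.00132 and 0.00156). Relative to netrin-1 WT they rose in unc5B MUT by 2.72 ± 0.36 and 2.59 ± 0.28 (adjusted p = 0.00682 and 0.00212). Sdc4, a heparan sulfate proteoglycan of the cell surface, fell by 0.84 ± 0.19 in neo1 MUT relative to control (adjusted p = 0.0322). Thus 0 of 28 rose and 2 fell in netrin-1 WT over control (median 0.07), against 3.5% of all genes called, and 0 rose and 3 fell in neo1 MUT over control (median -0.16), against 5.26%. The gene with the most counts, Hspg2 for the basement membrane proteoglycan perlecan, averaged 640 ± 332 CPM in netrin-1 WT cells, 531 ± 413 CPM in unc5B MUT, 682 ± 564 CPM in neo1 MUT and 549 ± 317 CPM in control and was called in none.

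Of 24 genes of the cascade from receptor to ERK, all tested, 0 rose and 2 fell in netrin-1 WT over control (median -0.02), against 3.5% of all genes called in that fit. These were Nras, a Ras GTPase gene, which fell by 0.55 ± 0.11 (adjusted p = 0.0246), and Braf, the gene of a Raf kinase, which fell by 0.60 ± 0.12 (adjusted p = 0.0221). In neo1 MUT over control 1 rose and 1 fell (median 0.07), against 5.26% of all genes: the docking protein gene Gab2 rose by 1.49 ± 0.38 (adjusted p = 0.0467) and Braf fell by 0.68 ± 0.12 (adjusted p = 0.0112). Nras rose by 0.75 ± 0.11 in unc5B MUT relative to netrin-1 WT (adjusted p = 0.0104).

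The list of ERK feedback inhibitors and response genes (24 of 25 tested) had calls in both directions. In netrin-1 WT over control 1 rose and 1 fell (median -0.07), 2 of 24 against 3.5% of all genes, and both were Sprouty genes, which encode feedback inhibitors of receptor signalling. Spry1 rose (adjusted p = 0.00677), with 32.9 ± 11.1 CPM in netrin-1 WT and 16.4 ± 5.23 CPM in control. Spry2 fell by 0.56 ± 0.13 (adjusted p = 0.0384), with 52.9 ± 7.84 CPM in netrin-1 WT and 77.3 ± 6.94 CPM in control. Relative to netrin-1 WT, Spry1 fell by 0.81 ± 0.15 in unc5B MUT (adjusted p = 0.0288) and by 0.74 ± 0.16 in neo1 MUT (adjusted p = 0.0388). In neo1 MUT over control 0 rose and 2 fell (median -0.02, against 5.26% of all genes), Spry2 by 0.72 ± 0.13 and Etv1, an ETS factor gene, by 0.74 ± 0.19 (adjusted p = 0.0115 and 0.0455). Etv5 and Etv4, ETS factor genes that FGF signalling turns on in many tissues, were called in no comparison by paired edgeR. Etv5 averaged 304 ± 51.8 CPM in netrin-1 WT cells, 300 ± 111 CPM in unc5B MUT, 326 ± 159 CPM in neo1 MUT and 239 ± 6.21 CPM in control. Among the 89 tested genes of the 4 lists, Fgf10, Klb, Flrt3, Sdc4, Nras and Spry2 fell in neo1 MUT over unc5B MUT by paired edgeR. None rose, and 4.87% of all genes were called there. In neo1 MUT over netrin-1 WT paired edgeR called Spry1 alone, against 1.99% of all genes. DESeq2 with the block called 1 of the other FGF genes there, 4 genes of the coreceptor list and 1 ERK response gene. In unc5B MUT over control paired edgeR called 0 of the 89, against 0.0285% of all genes. There 3 had an unadjusted p under 0.05 and DESeq2 with the block called 1. Without pairing edgeR called no gene of the 4 lists in any comparison, against 0% to 0.133% of all genes. That fit had 0 to 7 genes of a list at an unadjusted p under 0.05. All list calls above thus rest on the paired fit, and how they depend on single libraries was not tested.

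**Figure D5:**
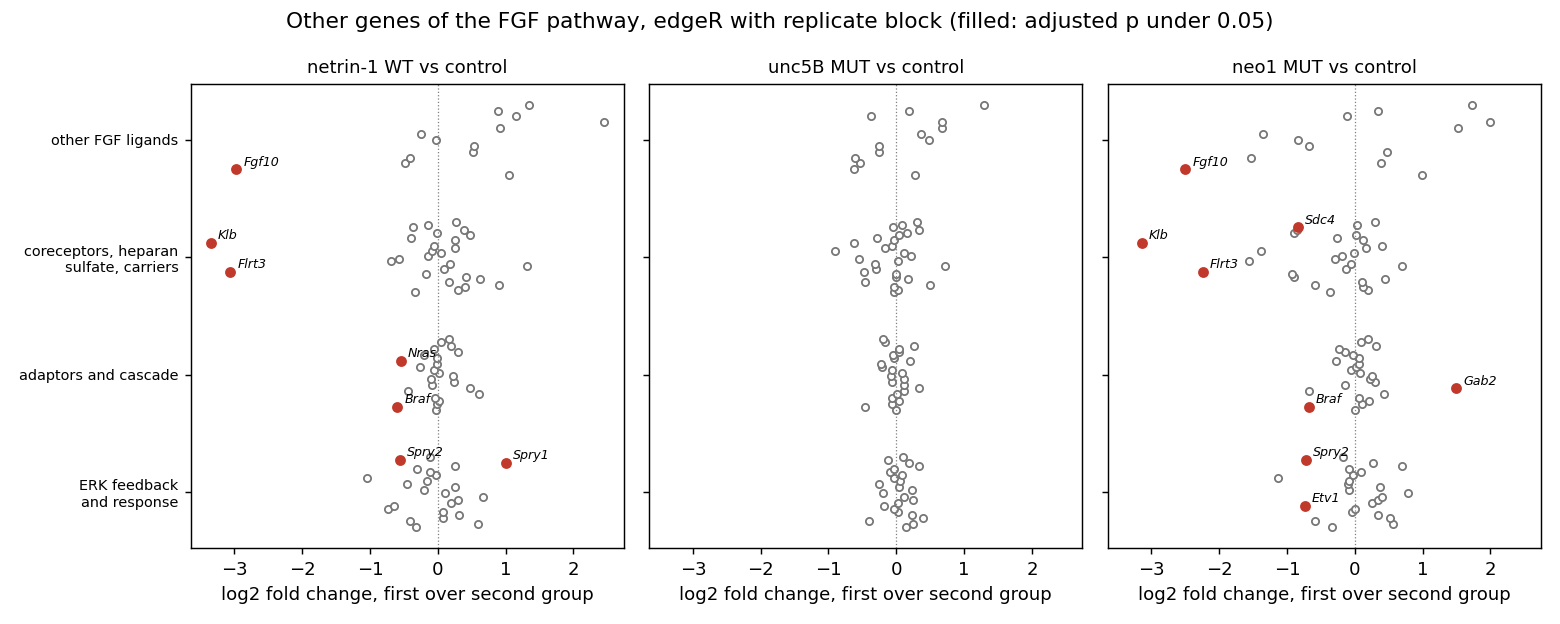
Paired log2 fold changes over control of the other genes of the FGF pathway, 1 row of points per list and 1 panel per netrin-1 group. Filled points are genes with an adjusted p under 0.05, which are Fgf10, Klb, Flrt3, Nras, Braf, Spry2 and Spry1 in netrin-1 WT and Fgf10, Sdc4, Klb, Flrt3, Gab2, Braf, Spry2 and Etv1 in neo1 MUT, and there are none in unc5B MUT.

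The likeness of patterns was measured as Pearson's r of log2 CPM over the 12 libraries after the mean of each replicate number was removed, among 10149 genes with a mean of at least 5 CPM. These libraries share their groups, so the values describe this data set only. The plain r, with nothing removed, is given for each pair and was often far lower or of the opposite sign. The genes nearest to Fgf4 were Pkn3, Hif3a and Pdpk1 (r = 0.970, 0.950 and 0.948, and plain r = -0.17, 0.80 and 0.90). Those nearest to Fgfr2 were Ddx52, Prkaa1 and Aimp1 (r = 0.960 for each, and plain r = 0.20, -0.02 and 0.77). The nearest to Fgfr3 were Rnf19a, Tle1 and Pdpr (r = 0.957, 0.946 and 0.945, and plain r = 0.17, 0.87 and 0.19). To Fgfr1 they were Lin28a, Mon2 and Tpp1 (r = 0.908, 0.908 and 0.890, and plain r = -0.38, -0.09 and 0.76). Fgfr4 was nearest to Nucb2 (r = 0.903, plain r = 0.72), Frs2 to Pip4p1 (r = 0.974, plain r = -0.59) and Grb2 to Ankfy1 (r = 0.922, plain r = -0.73). Between members the value farthest from 0 was that of Fgf4 and Fgfr2, which ran opposite to each other (r = -0.80, plain r = -0.82), followed by Fgfr3 with Fgfr4 (r = 0.63, plain r = 0.59) and Fgf4 with Fgfr1 (r = 0.61, plain r = -0.42). Frs2 and Grb2 had r = -0.06 and a plain r of -0.87, with the libraries of number 3 low in Frs2 and high in Grb2.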

How the data were processed

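RNA-seq of 12 libraries was used as deposited. Per the file headers the count table holds a value per Ensembl gene, and 99.6% to 99.8% of the values above 0 in a library were not whole, so the deposited values are estimated counts. They were rounded to whole numbers before the fits. No test used the deposited normalized table, whose scale is close to log2. For 20347 genes the authors' deposited comparisons give, per the file headers, each log2 fold change with its p-value, raw and adjusted, and a score that is a signed fold. The submitters' processing notes name STAR 2.5.2b, DESeq2, R 3.3.2, FastQC 0.11.5, Bowtie2 and Bowtie and the builds GRCm38.p5, mm10 and GRCh38, without a role for each. The counting program and its use of strand are not given in the sources used here.

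Counts were fitted in edgeR 4.0.16 (R 4.3.3, limma 3.58.1) with TMM, the filterByExpr filter (21053 of 52661 genes kept) and a term per group over all 12 libraries. The 6 contrasts were tested with the quasi-likelihood F-test and Benjamini-Hochberg adjustment over all tested genes at 0.05. Standard errors are the fold change divided by the square root of F. Libraries with the same replicate number in their titles deviated together from their group means (correlation 0.58 to 0.88 over 18 pairs, above the minimum of 0.1), so the fit with the number as a block is given beside the unpaired one. Numbers 1 and 2 also correlated with each other (0.49 to 0.76), and number 3 ran against them (-0.83 to -0.60). Deviations from a group mean cancel out within the group, so a number 3 that stands apart can alone give these signs. The correlations thus show number 3 against the rest, and do not show that numbers 1 and 2 are each paired across groups. Names and positions came from GENCODE M21, which held 52566 of the IDs.

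All 7 members were named, and of each pathway list the genes called and up to 4 others with the highest mean. The members, lists and markers were chosen with earlier results of these data known. Alternatives were RLE scaling, no filter, limma-voom, DESeq2 1.42.0, a minimum of 1 CPM in 3 libraries, the 2 compared groups alone, replicate numbers 1 and 2 alone and leaving out each library. The scripts were tested on simulated counts.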

Additional observations from a re-analysis of the deposited data

Results flagged for a closer look

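Fgfr2 and Fgfr3 differed between netrin-1 forms in the paired edgeR fit, by tests of the difference itself. Fgfr2 had a log2 fold change of 1.86 for unc5B MUT over netrin-1 WT (adjusted p = 0.023, higher in 3 of 3 replicate numbers, and 0.941 without pairing), a call lost in 4 of the 6 paired fits that left out 1 library (adjusted p up to 0.119). Fgfr3 had a log2 fold change of -1.94 for neo1 MUT over netrin-1 WT (adjusted p = 0.0316, lower in 3 of 3 replicate numbers, and 0.284 without pairing), a call lost in 6 of 6 such fits, with adjusted p between 0.0626 and 0.137.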

How the results depend on the processing

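The counts of members called were 0 in all 6 comparisons without pairing and stayed 0 with RLE scaling, either other filter, limma-voom, the compared groups alone or any 1 library left out. The replicate block gave 1 for netrin-1 WT over control, 2 for neo1 MUT over control, 1 for unc5B MUT over netrin-1 WT and 1 for neo1 MUT over netrin-1 WT. With the block and 1 library left out these counts were 1 in every fit, 0 to 2, 0 to 2 and 0. Replicate numbers 1 and 2 alone gave 1 in each of the 4 (Fgfr2, Fgfr3, Fgfr2 and Fgfr3), and DESeq2 gave 1 (Fgfr3) for neo1 MUT over control and over netrin-1 WT. Among alternatives chosen after seeing the data, the block on numbers 1 and 2 gave 2, 2, 2 and 1, and 1 (Fgfr3) for neo1 MUT over unc5B MUT, while the block in DESeq2 gave 2, 3, 2 and 1, and 2 (Fgf4 and Fgfr2) for neo1 MUT over unc5B MUT.

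Of the single fold changes under alternatives 468 kept their sign and side of the threshold, 43 newly passed it and 21 changed sign, none of these called. For the comparisons with control the fold changes tallied were those of Fgf4, Fgfr2 and Fgfr3, so the tally does not cover the other members there. Fgfr3 in netrin-1 WT over control was -0.02 unpaired, 0.06 with the block, 0.19 with limma-voom, 0.33 on numbers 1 and 2, 0.35 there with the block and 0.05 in DESeq2 with the block. Leaving out 1 library moved it between -0.38 and 0.69 unpaired and between -0.25 and 0.59 with the block (0.20 and 0.03 without netrin-1 WT library 1 or 2). Leaving out 1 library moved Fgf4 in unc5B MUT over control between -0.24 and 0.07, Fgfr2 there between -1.03 and 0.06 (0.06 without control library 3), Fgf4 in neo1 MUT over netrin-1 WT between -0.17 and 0.05 (between -0.16 and 0.09 with the block, 0.02 without neo1 MUT library 1) and Fgfr2 there between -0.04 and 1.46 (-0.04 without netrin-1 WT library 1). The cause was not tested. Receptor shares moved with the length used: Fgfr1 averaged 84.1% with no length, and Fgfr4 11% with the longest transcript and 7.68% with no length. Low counts limit Fgfr3, with 26 to 188 per library.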
